A study of Mus musculus with 7 samples.

Results

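The 10 immediate early genes described here, Fos, Fosb, Jun, Junb, Egr1, Ier2, Ier3, Atf3, Dusp1 and Zfp36, were taken from the deposited gene counts by an exact match of the gene name. Each name matched 1 row, so that 10 of 38293 listed genes were used, and all 10 were among the 14869 genes that passed the filter on low counts. The genes were measured in ileal scrapings (epithelium and lamina propria) of male C57BL/6NRJ mice, 8 weeks old when housed for the study, in 4 normal cys libraries (X17SI4, X32SI4, SI9 and X1SI4) and 3 low cys libraries (X23SI4, X26SI4 and X10SI4). All mice were fed a high fat, low calcium AIN93G diet (40% of the energy from fat) for an acclimatization of 1 week. They then received it for 2 weeks with the usual cystine content (0.38%, normal cys) or with the added cystine replaced by alanine (0.08% cystine left, low cys). Mice were fasted for 4 h, anesthetized with isoflurane and killed by cervical dislocation, and the ileum was washed, scraped and snap-frozen. The time from death to freezing is not given in the sources used here. Library totals ranged from 14888760 to 22412703 counts, and the epithelial markers (Epcam, Cdh1, Vil1, Krt8, Krt18, Krt19 and Krt20) and the ileal gene list (6 genes in the table, Fabp6 and Fgf15 among them) were present in all 7 libraries.

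Immediate early genes are transcribed within minutes of a stimulus, without the need for new protein, and their mRNAs are short-lived. The ERK cascade acts on their promoters through serum response factor (SRF) and its ETS-family partners, and through CREB, while the stress kinases JNK and p38 act through JUN and ATF2. FOS and JUN family proteins pair to form the AP-1 transcription factor, EGR1 is a zinc-finger transcription factor, and other immediate early products end the response: DUSP1 dephosphorylates the kinases and ZFP36 binds AU-rich mRNAs and promotes their decay. In the intestine these genes are known to respond to growth factors, luminal contents, injury and tissue handling.

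No immediate early gene differed between the diets at an adjusted p-value under 0.05 (0 of 10, edgeR's quasi-likelihood test, Benjamini-Hochberg over all genes tested). The background was 0% of 14869 genes by edgeR, while DESeq2 gave 16 genes, none of them an immediate early gene. Adjusted p-values of the 10 genes were between 0.794 and 0.901. At an unadjusted p-value under 0.05 there was 1 of 10 (Junb), against 5.49% of all genes tested (817 genes). The estimate was lower in low cys for 7 genes and higher for 3 (Egr1, Fosb and Fos), with a median log2 fold change of -0.26 against 0.01 over all genes, of which 48.8% had a lower estimate. The diet groups did not overlap in 1 of 10 genes (Junb), against 6.83% of all genes tested. Fewer cells of a type cannot be told apart from less RNA per cell in such bulk samples.

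**Figure D1:**
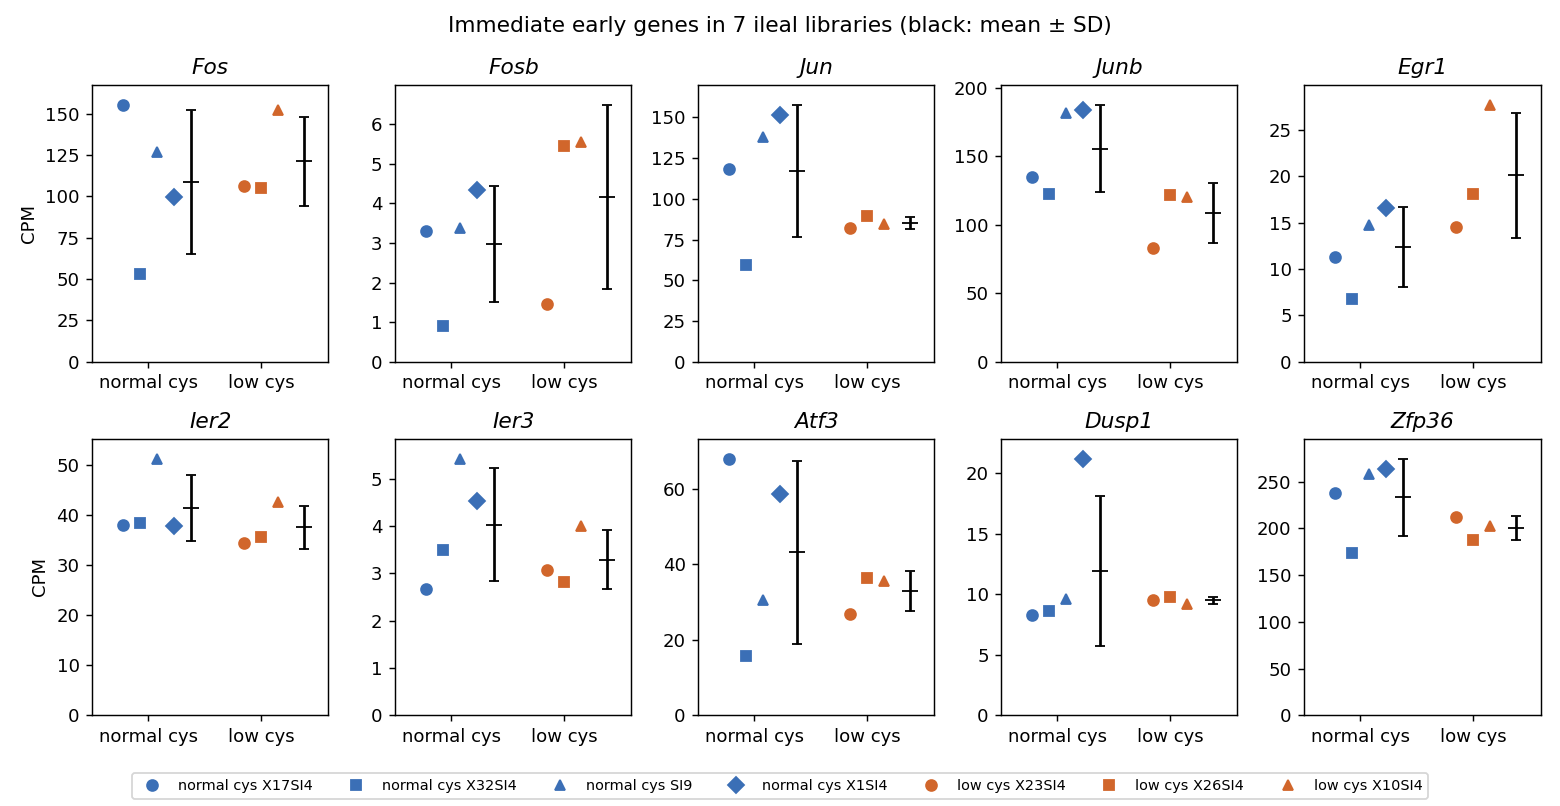
Expression of the 10 immediate early genes in CPM (linear axes starting at 0) in each library, by diet, where blue points are the 4 normal cys libraries, orange points the 3 low cys libraries and black bars the mean ± SD. Junb is the gene in which the diets do not overlap, normal cys library X32SI4 (blue square) is lowest in 6 genes, and normal cys library X1SI4 (blue diamond) stands far above the rest for Dusp1.

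Levels are given as CPM, the count relative to the TMM-normalized size of its library, and levels between genes were compared per kilobase of exon (CPM per kb). In normal cys libraries Zfp36 was the most abundant, with 130.1 ± 22.8 CPM per kb (SD, n = 4), followed by Junb with 84.5 ± 17.1, Fos with 46.2 ± 18.5, Jun with 36.6 ± 12.7, Ier2 with 27.2 ± 4.32 and Atf3 with 21.7 ± 12.2. Dusp1 (4.41 ± 2.30), Ier3 (3.56 ± 1.06), Egr1 (2.76 ± 0.971) and Fosb (0.794 ± 0.390) followed. These 6 and 4 genes did not overlap over the 7 libraries, although the lowest Atf3 level (7.852 CPM per kb) lay next to the highest Dusp1 level (7.847 CPM per kb). Other neighbors in this order overlapped in their range over libraries, Zfp36 (97.2 to 146.8) and Junb (45.2 to 99.8) included, except Egr1 (lowest 1.499) and Fosb (highest 1.478). In low cys libraries the first 6 genes had the same order, and Egr1 (4.49 ± 1.51 CPM per kb, SD, n = 3) came above Dusp1 (3.52 ± 0.100) and Ier3 (2.91 ± 0.552), with Fosb (1.11 ± 0.619) again the lowest.

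Fos and Fosb encode the FOS partners of AP-1. Fos (ENSMUSG00000021250, GRCm38 chromosome 12 from 85473890 to 85477273) had 155.0, 52.9, 127.1 and 99.8 CPM in normal cys libraries X17SI4, X32SI4, SI9 and X1SI4, and 106.3, 104.8 and 152.4 CPM in low cys libraries X23SI4, X26SI4 and X10SI4. The diets overlapped, since X17SI4 was the highest and X32SI4 the lowest of all 7 libraries. Low cys against normal cys, the log2 fold change of Fos was 0.16 (95% interval -0.57 to 0.89, standard error 0.32), with an adjusted edgeR p of 0.901 and an exact permutation p of 0.686. It turned slightly negative without normal cys library X32SI4 (-0.05) and without low cys library X10SI4 (-0.04).

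Fosb (ENSMUSG00000003545, chromosome 7 from 19302721 to 19310045) was the least abundant of the 10 genes and the most variable, with between 20 and 91 counts per library. It had 3.29, 0.908, 3.36 and 4.35 CPM in the normal cys libraries and 1.47, 5.44 and 5.54 CPM in the low cys libraries, in the same library order as for Fos. X32SI4 was again the lowest, and low cys libraries X26SI4 and X10SI4 were above every normal cys library while X23SI4 was below all but X32SI4. Fosb had a log2 fold change of 0.47 (95% interval -0.82 to 1.75, standard error 0.57), with an adjusted edgeR p of 0.841 and an exact permutation p of 0.543. The estimate was 0.18 without X32SI4, 0.20 without X10SI4, 0.24 without X26SI4, 0.71 without X1SI4 and 0.89 without X23SI4.

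Egr1 (ENSMUSG00000038418, chromosome 18 from 34859823 to 34864984), a classical target of ERK and SRF, had the largest positive estimate. It had 11.3, 6.72, 14.8 and 16.6 CPM in the normal cys libraries X17SI4, X32SI4, SI9 and X1SI4 and 14.6, 18.1 and 27.6 CPM in the low cys libraries X23SI4, X26SI4 and X10SI4. Low cys libraries X26SI4 and X10SI4 lay above every normal cys library, whereas X23SI4 lay inside the normal cys range. The mean was 12.4 ± 4.35 CPM (SD, n = 4) in normal cys and 20.1 ± 6.76 CPM (SD, n = 3) in low cys, with an estimated log2 fold change of 0.70 (standard error 0.32, 95% interval -0.02 to 1.42) that did not pass the test (edgeR p = 0.0565, adjusted p = 0.794, exact permutation p = 0.171). The smallest p that an exact permutation of 4 against 3 libraries can give is 0.0286. The unadjusted p-value was 0.0417 in DESeq2. With single libraries left out, the estimate of Egr1 moved both ways. It was 0.40 without low cys library X10SI4, 0.79 without X26SI4 and 0.90 without X23SI4. Without normal cys library X32SI4 it was 0.51, without X17SI4 0.66, without SI9 0.80 and without X1SI4 0.88. In limma-voom with sample quality weights the estimate was 0.95.

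Jun and Junb encode the JUN partners of AP-1. Junb (ENSMUSG00000052837, chromosome 8 from 84976909 to 84978748, a gene of a single exon) had 135.0, 122.2, 181.1 and 183.6 CPM in normal cys libraries X17SI4, X32SI4, SI9 and X1SI4, and 83.3, 121.9 and 120.5 CPM in low cys libraries X23SI4, X26SI4 and X10SI4. Every low cys library was below every normal cys library, but X26SI4 and X32SI4 met at the border with 121.9 and 122.2 CPM. The mean was 155.4 ± 31.5 (SD, n = 4) in normal cys and 108.5 ± 21.9 CPM (SD, n = 3) in low cys. Junb had a log2 fold change of -0.52 (95% interval -0.97 to -0.06, standard error 0.20), with an unadjusted edgeR p-value of 0.0294 that ranked 420 of 14869 genes, an adjusted p of 0.794 and a two-sided exact permutation p of 0.0571. The unadjusted edgeR p-value was 0.126 without low cys library X23SI4, 0.0711 without normal cys library SI9 and 0.0609 without normal cys library X1SI4, with estimates of -0.35, -0.44 and -0.43. With raw library sizes in place of TMM the unadjusted p-value of Junb was 0.0517 (estimate -0.37) and that of Egr1 was 0.0158 (estimate 0.86), so that Egr1 and not Junb was the gene under 0.05. In a newer annotation (GENCODE M21, GRCm38), 173 exonic bases of Junb also belong to Prdx2, a peroxiredoxin gene on the opposite strand, and the strand setting of the counting is not given in the sources used here. Prdx2 had 109.8 ± 13.0 CPM (SD, n = 4) in normal cys and 107.4 ± 7.85 CPM (SD, n = 3) in low cys.

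Jun (ENSMUSG00000052684, chromosome 4 from 95049034 to 95052222) had 118.2, 59.7, 137.7 and 151.7 CPM in the normal cys libraries and 82.1, 89.2 and 84.5 CPM in the low cys libraries, in the same order. The 3 low cys libraries lay close together (85.3 ± 3.63 CPM, SD, n = 3) between X32SI4 and the other 3 normal cys libraries (116.8 ± 40.5 CPM over the 4, SD). Jun had a log2 fold change of -0.45 (95% interval -1.08 to 0.17, standard error 0.27), with an adjusted edgeR p of 0.794 and an exact permutation p of 0.343. Without normal cys library X32SI4 it was -0.66, with an unadjusted edgeR p-value of 0.00104 and an adjusted one of 0.688. In the deposited table, 232 exonic bases of Jun (7.28% of its exon length) overlap an antisense gene, BC042782, which had at most 0.908 CPM in any library.

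Atf3 (ENSMUSG00000026628, chromosome 1 from 191170296 to 191183340), a stress-induced member of the ATF/CREB family, had 67.8, 15.6, 30.6 and 58.5 CPM in the normal cys libraries X17SI4, X32SI4, SI9 and X1SI4 and 26.7, 36.4 and 35.6 CPM in the low cys libraries X23SI4, X26SI4 and X10SI4. Its normal cys levels spanned 4.35-fold and enclosed all low cys levels, which spanned 1.36-fold. Atf3 had an estimated log2 fold change of -0.39 (95% interval -1.41 to 0.62, standard error 0.44), with an adjusted edgeR p of 0.836 and an exact permutation p of 0.886. In limma-voom with sample quality weights the estimate was 0.06, and with single libraries left out it lay between -0.66 (without X32SI4) and -0.09 (without X17SI4).

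Zfp36 (ENSMUSG00000044786, chromosome 7 from 28376784 to 28379255) had 237.3, 174.1, 258.0 and 263.1 CPM in the normal cys libraries and 211.7, 187.2 and 202.1 CPM in the low cys libraries. X32SI4 was the lowest library, and the low cys libraries lay between it and the other normal cys libraries, as for Jun. For Zfp36 the log2 fold change was -0.22 (95% interval -0.59 to 0.15, standard error 0.16), with an adjusted edgeR p of 0.798 and an exact permutation p of 0.286.

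Dusp1 (ENSMUSG00000024190, chromosome 17 from 26505590 to 26508519) had 8.31, 8.58, 9.57 and 21.2 CPM in normal cys libraries X17SI4, X32SI4, SI9 and X1SI4 and 9.55, 9.75 and 9.22 CPM in the low cys libraries. X1SI4 alone stood apart, and the other 6 libraries lay between 8.31 and 9.75 CPM. The estimate for Dusp1 was -0.33 (95% interval -1.08 to 0.42, standard error 0.33), with an adjusted edgeR p of 0.825 and an exact permutation p of 0.943. It was 0.11 without X1SI4.

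Ier2 and Ier3 encode proteins of the immediate early response, and IER3 is known to act on survival and on ERK signaling. In the study, Ier3 was also measured by qRT-PCR as a marker of intestinal damage, and no significant change was reported. Ier2 (ENSMUSG00000053560, chromosome 8 from 84661331 to 84662852) had 37.9, 38.5, 51.2 and 37.8 CPM in the normal cys libraries and 34.5, 35.7 and 42.5 CPM in the low cys libraries, and was the least variable of the 10 genes. Ier2 had a log2 fold change of -0.14 (95% interval -0.48 to 0.20, standard error 0.15), with an adjusted edgeR p of 0.833 and an exact permutation p of 0.514. It lay between -0.24 (without X10SI4) and -0.02 (without SI9) when single libraries were left out. Ier3 (ENSMUSG00000003541, chromosome 17 from 35821684 to 35822923) had 2.66, 3.497, 5.41 and 4.54 CPM in the normal cys libraries and 3.06, 2.81 and 4.00 CPM in the low cys libraries. The diets overlapped at 45 to 103 counts per library, and the log2 fold change of Ier3 was -0.29 (95% interval -0.96 to 0.37, standard error 0.30), with an adjusted edgeR p of 0.821 and an exact permutation p of 0.429. Without single libraries it lay between -0.46 (without X10SI4) and -0.12 (without SI9).

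The primer pair of the study for Ier3 is shown because it marks the stretch of the transcript on which the qRT-PCR reports, while the counts cover both exons. Both primers matched the Ier3 transcript exactly and span 168 bases of it at chr17:35822180-35822347 (GRCm38, plus strand), with the forward primer in the coding sequence or stop codon and the reverse primer in the 3′ UTR.
Ier3 forward: tgacacctgagcccatttct
Ier3 reverse: tggtgcctttgtttcttcgg

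**Figure D2:**
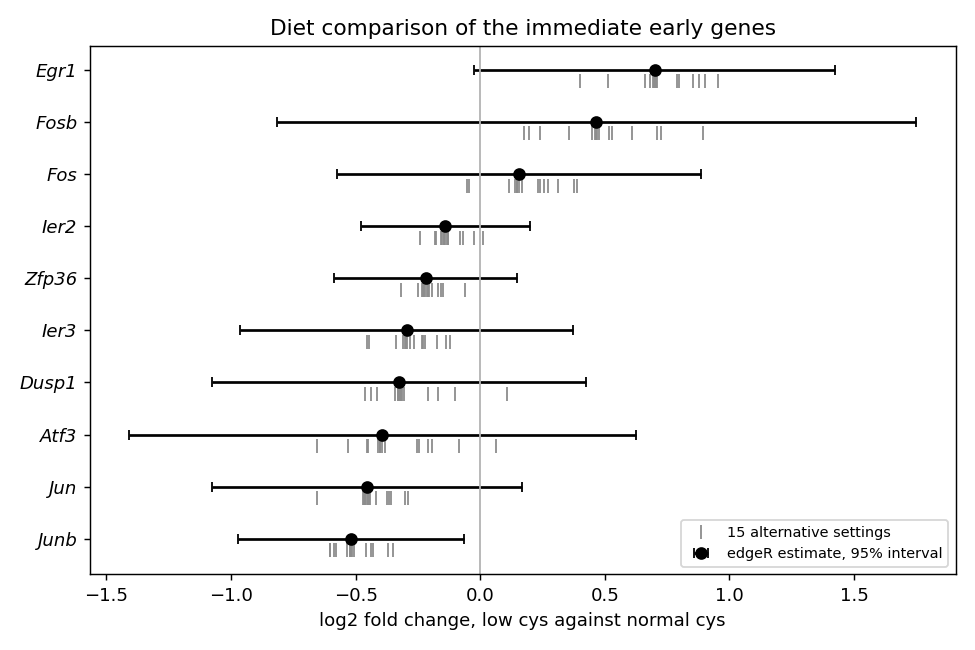
Log2 fold change of each gene, low cys against normal cys, on the horizontal axis, where black points are the edgeR estimates with their 95% interval and gray ticks the estimates under 15 alternative settings. The interval of Junb (-0.97 to -0.06) is the only one of the 10 that does not include 0, and all ticks of Junb, Jun, Zfp36 and Ier3 lie below 0 and all of Egr1 and Fosb above.

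Ratios of counts within a library do not depend on how libraries are scaled. The ratios were chosen after the values were seen and were not tested. There were 0.0840, 0.0550, 0.0816 and 0.0906 Egr1 counts per Junb count in normal cys libraries X17SI4, X32SI4, SI9 and X1SI4, and 0.175, 0.149 and 0.230 in low cys libraries X23SI4, X26SI4 and X10SI4. Every low cys library was above every normal cys library in this ratio, and its mean was 2.37 times as high. Egr1 had the highest and Junb the lowest log2 fold change of the genes described, so a higher ratio in low cys follows from the choice of this pair. How many other gene pairs have ratios without overlap was not counted. The ratio of Fos to Jun counts was 0.945 ± 0.271 (SD, n = 4) in normal cys and 1.42 ± 0.334 (SD, n = 3) in low cys, and here X17SI4 (1.31) overlapped the low cys libraries. The ratio of Fosb to Junb counts overlapped as well, with 0.0176 in X23SI4 and 0.0244 in X17SI4.

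Cell types other than epithelium contribute to scrapings. The summed level of the 7 epithelial markers was 14567 to 15800 CPM in normal cys and 11704 to 13908 CPM in low cys libraries. That of 7 stromal markers (Col1a1, Col1a2, Col3a1, Dcn, Lum, Pdgfra and Vim) was 10.3 to 19.5 CPM in normal cys and 21.6 to 29.2 CPM in low cys. The B and plasma cell sum (5 of 7 markers in the table) was 38.8 to 127.4 CPM in normal cys and 155.5 to 229.99 CPM in low cys. Its single markers were divided, with 3 higher and 2 lower estimates in low cys. These 3 sums separated the diets, as Junb did, and their part in the Junb and Egr1 values was not tested. Of the neutrophil markers, Ly6g was at 0 and the 6 genes together reached at most 0.136 CPM. The macrophage sum (7 of 8 markers in the table) ranged from 11.4 to 34.4 CPM in normal cys and from 28.9 to 42.5 CPM in low cys, and the smooth muscle sum (7 of 7) from 8.26 to 20.3 and from 13.2 to 47.8 CPM. Sums of T cell markers (62.2 to 76.4 and 46.4 to 72.2 CPM), endothelial markers (2.53 to 5.31 and 5.03 to 6.69 CPM) and neuronal and glial markers (0.261 to 0.946 and 0.694 to 1.12 CPM, Sox10 at 0) overlapped between the diets. Of the single markers tested, estimates were higher in low cys for 6 of 6 stromal, 7 of 7 smooth muscle, 7 of 7 macrophage and 5 of 6 endothelial genes. They were lower for 6 of 7 epithelial and 5 of 6 T cell genes, and 0 of these markers passed the adjusted threshold.

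How far mice fed alike differed was expressed as the biological coefficient of variation (BCV), the variation beyond counting error, which edgeR moderates toward the trend of genes of like abundance. It was above that trend for 7 of 10 immediate early genes, compared to 28.2% of all genes tested, and the median ratio of the BCV to the trend was 1.28 against 0.854 over all genes. Atf3 had a BCV of 40.1%, which was 2.02 times its trend and higher in this ratio than 97.9% of genes tested. The BCV was 51.4% for Fosb (1.54 times the trend, 94.5th percentile), 30.5% for Fos (1.51 times, 94.1st percentile), 30.6% for Egr1 (1.32 times), 26.4% for Jun (1.31 times) and 31.4% for Dusp1 (1.25 times). Junb lay at its trend (20.5%, 1.01 times), whereas Ier2 (16.6%), Ier3 (27.8%) and Zfp36 (17.7%) were below theirs, with ratios of 0.834, 0.849 and 0.856. The values are descriptions and were not tested, and with raw library sizes they were between 15.8% and 48.9%. In 8 of 10 genes the SD of log2 CPM was smaller in low cys than in normal cys, but this was also so for 73.1% of all genes tested.

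**Figure D3:**
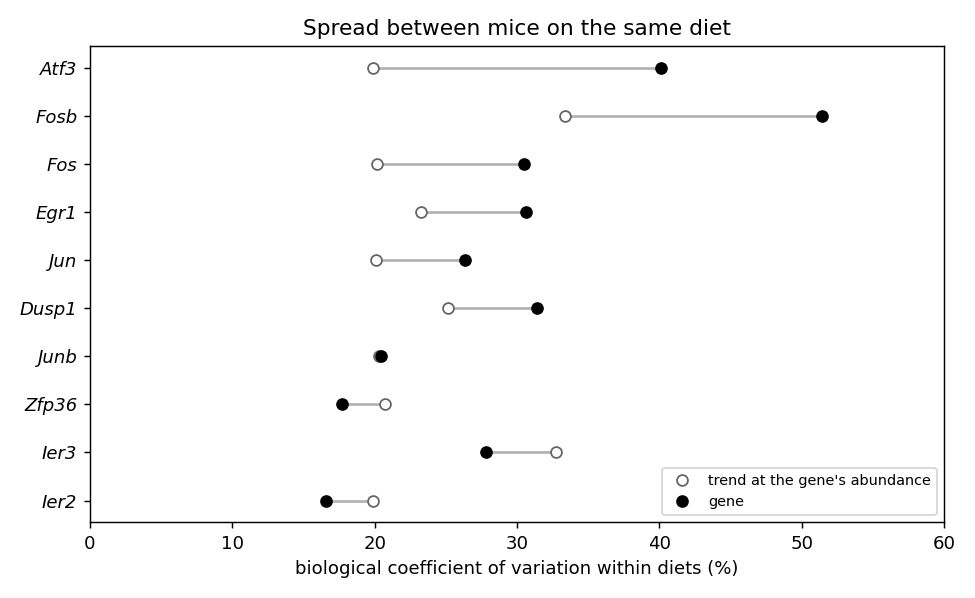
Biological coefficient of variation within diets in percent (horizontal axis) for each immediate early gene, where filled points are the genes and open points the trend over all genes at the same abundance. Atf3, at 40.1% against a trend of 19.9%, has the widest gap, and Ier2, Ier3 and Zfp36 lie to the left of their trend.

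The spread was in part shared by the genes of a library. Normal cys library X32SI4 was the lowest of the 7 libraries for Fos, Fosb, Jun, Egr1, Atf3 and Zfp36 (6 of 10), while it was the lowest for 14.97% of all genes tested. X32SI4 was the highest for 0 of 10. Normal cys library X1SI4 was the highest for Jun, Junb, Dusp1 and Zfp36 (4 of 10), against 24.4% of all genes, of which it was the lowest for 24.9%. The mean of the centered log2 CPM over the 10 genes was -0.64 in X32SI4 and -0.29 in low cys library X23SI4, and it was 0.09 in X17SI4, 0.23 in SI9, 0.40 in X1SI4, 0.01 in X26SI4 and 0.20 in X10SI4. The lowest and the highest library were thus both on the normal cys diet. X32SI4 had 21410743 counts, 7.11% of them mitochondrial against 6.08% to 10.98% in the other libraries, and the highest epithelial marker sum (15800 CPM). The part of these measures in its low levels was not tested.

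**Figure D4:**
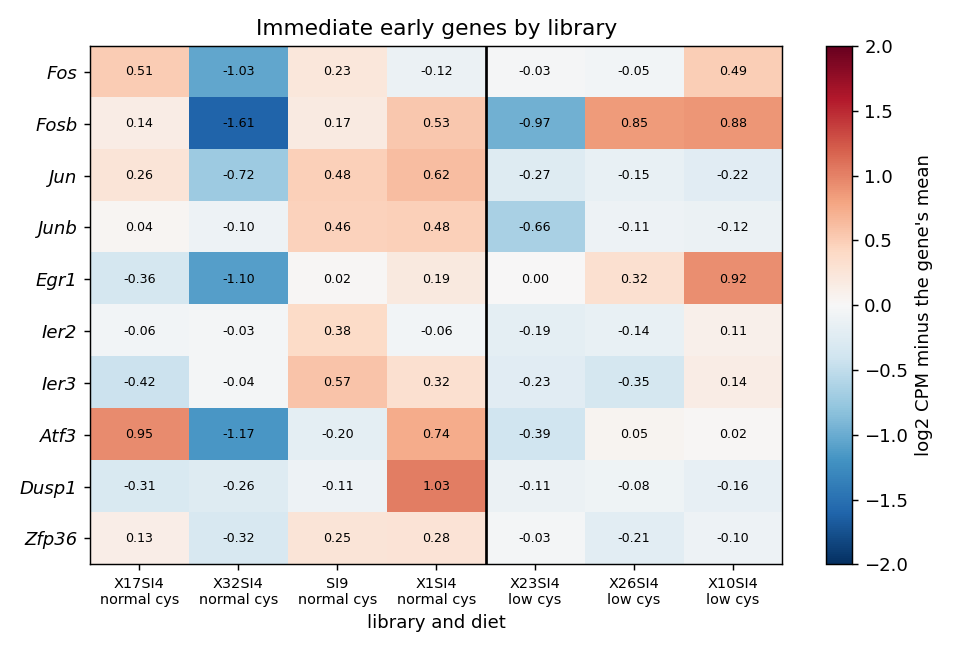
Log2 CPM of each gene in each library minus the gene's mean over the 7 libraries, with red above and blue below the mean and a black line between the diets. The column of X32SI4 is blue throughout, the largest value of Dusp1 is in X1SI4, and Egr1 and Fosb are red in low cys libraries X26SI4 and X10SI4.

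Among the 45 pairs of the 10 genes, 41 had a positive Pearson correlation of log2 CPM over the 7 libraries (median r = 0.43, range -0.12 to 0.95), and all points of a pair share their library and its scaling. Without the 2 libraries farthest from the median of the first gene, r was negative in 20 of the 45 pairs. For Fosb and Jun r went from 0.58 to -0.72, and for Fos and Atf3 from 0.71 to -0.32. Leaving these libraries out also narrows the range of the first gene and leaves fewer points, which can weaken r by itself. How far the positive values rest on those libraries therefore cannot be told from it. The closest pair was Jun and Zfp36 (r = 0.95, exact permutation p = 0.00198, adjusted over the 45 pairs p = 0.0893, Spearman's rho = 0.86, exact permutation p = 0.0238, adjusted p = 0.536). Without SI9 and X1SI4, the 2 libraries farthest from the median of Jun, r was 0.87. By rank the closest pair was Fosb and Egr1 (r = 0.82, exact permutation p = 0.0149, adjusted p = 0.335, rho = 0.96, exact permutation p = 0.00278, adjusted p = 0.125), with r = 0.86 without X32SI4 and X23SI4. No pair passed the threshold after adjustment. Fos and Junb (r = 0.11) and Egr1 and Junb (r = 0.04) were hardly related over the 7 libraries, but after the diet means were removed r was 0.42 and 0.86. Other genes were ranked by their correlation with the mean of the 10 genes over the 7 libraries. The 5 with the highest r were Gm6395 (0.99), Bet1 (0.99), Gm5564 (0.99), Trib1 (0.97) and Kpna1 (0.97), as a description without a test. Bet1 encodes a SNARE protein of vesicle transport, Kpna1 an importin, and Trib1 a pseudokinase. Trib1 had 56.8 CPM in X32SI4 and 94.97 CPM in X1SI4, its lowest and highest libraries.

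The 10 genes have the compact structure known for this class. In the deposited table they spanned a median of 3059.5 bases, against 23066.5 bases for the 12550 protein-coding genes tested that have a 3′ UTR, and they had a median of 2 exons against 9. The 3′ UTRs (GENCODE M21, longest coding transcript) were searched on the sense strand for AU-rich elements, the sites to which ZFP36 binds. The element TATTTAT was in 7 of 10 genes against 29.3% of all, although the median 3′ UTR of the 10 was shorter (794.5 against 1105.5 bases). The longer element TTATTTATT, which contains it, was in Fos, Dusp1 and Zfp36 (3 of 10, against 7.78%), and ATTTA, the core of both, was most frequent per kilobase in Ier3 (8.16) and absent from Ier2. A match is a description of the sequence and not of binding. The first TTATTTATT site of Fos (chr12:85477103-85477132, plus strand), Dusp1 (chr17:26506158-26506187, minus strand) and Zfp36 (chr7:28376950-28376979, minus strand) is shown with the element in capitals (GRCm38). The spread was above its trend for Fos and Dusp1 and below it for Zfp36, and a relation to the element was not tested.
Fos site: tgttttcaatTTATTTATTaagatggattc
Dusp1 site: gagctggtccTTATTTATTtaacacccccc
Zfp36 site: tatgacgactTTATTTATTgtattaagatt

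The bases before the start of transcription were taken from RefSeq (GRCm38.p6), which gave a promoter for 8 of 10 genes, without Egr1 and Ier2. For Ier3, Atf3, Dusp1 and Zfp36 this start lay inside the gene as placed in the deposited table. The stretches shown for Dusp1 and Zfp36 thus reach into the counted genes, whose coordinates end at 26508519 and 28379255. In the 250 bases before the start, both strands were searched for the CRE (TGACGTCA, bound by CREB and ATF proteins), its core TGACG (which the CRE contains), an AP-1 site (TGANTCA), an EGR site (GCGNGGGCG), TATAAA and the CArG box of SRF. The CRE was found in Dusp1 alone (1.55% of 32851 promoters), its core in Fos, Fosb, Junb, Atf3 and Dusp1 (5 of 8, against 17.8%), the EGR site in Fosb and Zfp36 (4.70%), TATAAA in Fos (12.4%) and the CArG box in Zfp36 (1.47%). The AP-1 site was in none of the 8 (6.75%). For this and every other motif, the CArG box included, absence says only that these letters are not in this window. Egr1 and Ier2 were not searched. The last 150 bases are shown, with matches in capitals (none in Jun), for Fos and Fosb, for Jun and Zfp36 (the pair with the highest r over libraries) and for Dusp1, which holds the CRE. They lie at chr12:85473740-85473889 (Fos, plus strand), chr7:19310046-19310195 (Fosb, minus strand), chr4:95052223-95052372 (Jun, minus strand), chr7:28379229-28379378 (Zfp36, minus strand) and chr17:26508473-26508622 (Dusp1, minus strand).
Fos: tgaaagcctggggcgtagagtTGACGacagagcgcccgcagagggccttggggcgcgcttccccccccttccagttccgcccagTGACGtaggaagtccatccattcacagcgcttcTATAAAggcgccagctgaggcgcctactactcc
Fosb: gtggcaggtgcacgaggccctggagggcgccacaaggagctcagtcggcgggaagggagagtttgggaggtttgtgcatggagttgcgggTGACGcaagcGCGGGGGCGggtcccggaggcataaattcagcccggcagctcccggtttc
Jun: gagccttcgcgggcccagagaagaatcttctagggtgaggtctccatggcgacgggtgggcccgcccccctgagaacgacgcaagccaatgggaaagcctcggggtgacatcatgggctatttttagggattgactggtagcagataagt
Zfp36: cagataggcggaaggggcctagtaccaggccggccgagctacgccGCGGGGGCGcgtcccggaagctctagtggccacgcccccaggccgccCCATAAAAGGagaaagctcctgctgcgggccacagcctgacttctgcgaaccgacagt
Dusp1: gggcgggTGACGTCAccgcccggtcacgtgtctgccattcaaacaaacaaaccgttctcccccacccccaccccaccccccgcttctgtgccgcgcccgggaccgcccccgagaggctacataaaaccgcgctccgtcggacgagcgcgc

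Other genes of the pathway were described from lists chosen with earlier results known, and 0 genes of any list passed the adjusted threshold in edgeR. The genes named had the smallest edgeR p-values of their list in each direction or were its most abundant. Of all genes tested, 5.49% had an unadjusted edgeR p-value under 0.05, the share beside which the list counts at this level stand. Another 6.83%, counted separately over all genes tested, did not overlap between the diets, and how many list genes did so was not counted. Among 17 other immediate early genes tested (of 22 listed), 13 had a lower and 4 a higher estimate in low cys (median log2 fold change -0.18). An unadjusted p-value under 0.05 was found for 1 of the 17, near the share of 5.49% over all genes. This was Fosl2, a further FOS partner of AP-1, which had 386.3, 312.5, 417.2 and 499.99 CPM in normal cys libraries X17SI4, X32SI4, SI9 and X1SI4 and 259.9, 302.9 and 272.5 CPM in the low cys libraries. As for Junb, all low cys libraries lay below the normal cys libraries. The log2 fold change of Fosl2 was -0.54 (standard error 0.17, edgeR p = 0.0126, adjusted p = 0.794, exact permutation p = 0.0571). Klf4, the most abundant of this list and a regulator of epithelial differentiation, had 419.4 ± 72.9 (SD, n = 4) and 303.1 ± 84.4 CPM (SD, n = 3), a log2 difference of -0.47 (adjusted edgeR p = 0.794, exact permutation p = 0.114). Higher estimates were found for Myc (0.74, exact permutation p of 0.200) and Nr4a1 (0.51, exact permutation p = 0.371).

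Among 17 of 18 feedback inhibitors tested, 15 had a lower and 2 a higher estimate (median log2 fold change -0.16). The exception with the smallest p-value was Spred1, an inhibitor of the RAS to ERK step. It had 11.8, 8.81, 11.04 and 13.3 CPM in the normal cys libraries and 21.4, 19.9 and 15.4 CPM in the low cys libraries, without overlap (log2 fold change 0.75, standard error 0.19, edgeR p = 0.00280, adjusted p = 0.794, exact permutation p = 0.0286). The estimate was 0.13 for Zfp36l2, a paralog of Zfp36, -0.83 for Dusp10, a phosphatase of JNK and p38 (exact permutation p = 0.229), -0.31 for Nfkbia, the inhibitor of NF-κB (exact permutation p = 0.114), and -0.16 for Btg1, the most abundant of the list.

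Upstream, 23 of 24 genes of the ERK cascade with SRF and CREB were tested, of which 18 had a lower and 5 a higher estimate (median -0.08) and 0 had an unadjusted p-value under 0.05. The smallest edgeR p-values belonged to Map2k2 (-0.33, exact permutation p = 0.114) and Mapk3 (-0.22) among the lower genes, which encode MEK2 and ERK1, and to Creb1 (0.33, exact permutation p = 0.0857) and Rps6ka3 (0.26) among the higher genes. Erbb3, a receptor of the EGF receptor family, was the most abundant, with 671.3 ± 211.6 (SD, n = 4) and 631.9 ± 48.5 CPM (SD, n = 3). Of 14 JNK and p38 genes tested, 8 were lower and 6 higher (median -0.10). Map2k3, a kinase of p38, had 141.2 to 163.2 CPM in normal cys and 97.4 to 127.7 CPM in low cys libraries, without overlap. Its log2 fold change was -0.40 (standard error 0.13, edgeR p = 0.0151, adjusted p = 0.794, exact permutation p = 0.0286). The other named genes of this list were Mapk8 (-0.28), Mapk13 (-0.20, the most abundant), Map2k6 (0.38) and Map3k5 (0.21), with edgeR p-values of 0.155 and above.

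Of 11 mRNAs known to be bound by ZFP36, 4 passed the filter on low counts, and Il10 was at 0 in all libraries. Ccl3, a chemokine, was lower in all low cys libraries (0.245 to 0.437 CPM) than in all normal cys libraries (0.575 to 0.717 CPM). It had 6 to 15 counts per library, with a log2 fold change of -0.92 (edgeR p = 0.0513, adjusted p = 0.794, exact permutation p = 0.0286). Tnf had 1.59 ± 1.16 (SD, n = 4) and 0.871 ± 0.494 CPM (SD, n = 3), Il1b 0.383 ± 0.304 and 0.744 ± 0.224 CPM, and Lif 7.77 ± 1.24 and 7.39 ± 0.985 CPM. Of these 4 genes, 0 had an unadjusted p-value under 0.05. Among 9 of 10 genes of the integrated stress response, the pathway in which ATF4 induces Atf3 on amino acid shortage, 5 had a higher and 4 a lower estimate (median 0.03). Trib3, a pseudokinase induced by ATF4, had 9.82 to 19.6 CPM in normal cys and 8.20 to 10.1 CPM in low cys libraries (log2 fold change -0.80, standard error 0.24, edgeR p = 0.00930, exact permutation p = 0.0857). Atf4 itself had 229.2 ± 29.99 (SD, n = 4) and 199.0 ± 14.6 CPM (SD, n = 3), and Ddit3 (CHOP) 20.3 ± 7.02 and 13.4 ± 1.68 CPM. Of 8 heat shock genes, 5 had a lower and 3 a higher estimate (median -0.18), among them Dnajb1 (-0.41, edgeR p = 0.0254, exact permutation p = 0.0857), Hspa8 (-0.27), Hsp90aa1 (0.14) and Hspb1 (0.26). Hsp90aa1 had 305.8 CPM in X17SI4 against 109.6 to 234.3 CPM in the other libraries, and X17SI4 was also the library with the highest Fos and Atf3 levels.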

How the data were processed

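The authors sequenced 7 ileal scrapings, each from its own mouse according to the design text, as stranded poly(A) libraries with paired reads of 50 bases. In the methods of the study, reads were trimmed (Trim Galore), freed of ribosomal reads, mapped to GRCm38 (STAR) and assigned to exons of Ensembl release 70 (featureCounts). The authors deposited raw counts per gene, and the handling of reads mapping to several places is not given in the sources used here. No batch or pairing of mice is labelled. Here genes were kept by filterByExpr of edgeR (4.0.16, minimum count 10, minimum total 15), and TMM normalization was followed by edgeR's robust quasi-likelihood test without covariates. Log2 CPM used a prior count of 2, and the standard error is the log2 fold change over the square root of F. Exact permutation tests of single values were two-sided, on log2 CPM. Alternatives were DESeq2 (1.42.0, the tool of the study), limma-voom (limma 3.58.1), other scalings and filters, and leaving out each library. Stretches of 50 bases shared with other genes were 0% for 9 genes and 1.76% for Zfp36. The 10 genes and the lists were chosen with earlier results of these data known. Further genes named are the 5 most alike in pattern and, per list, the 2 with the smallest p-value in each direction and the most abundant.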

Additional observations from a re-analysis of the deposited data

Results flagged for a closer look

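In normal cys, 2 of the 10 genes had a library that stood apart from the other 3 by Dixon's test of log2 CPM at the 95% level, where chance gives 0.5. For Ier2 it was SI9 (51.2 CPM, the others 37.8 to 38.5 CPM), whose gap took up 0.937 of the range. For Dusp1 it was X1SI4 (21.2 CPM, the others 8.31 to 9.57 CPM), whose gap took up 0.849 of the range. The causes were not tested.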

How the results depend on the processing

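Of 150 estimates (10 genes under 15 alternatives), 145 kept their direction, and 0 had an adjusted p-value under 0.05 (lowest 0.381). The direction turned for Ier2, whose log2 fold change was 0.0102 with raw library sizes, for Atf3, with 0.0628 in limma-voom with quality weights, and, with each library left out in turn, for Fos (from -0.0546 without X32SI4, and -0.04 without X10SI4, to 0.38) and Dusp1 (from -0.46 to 0.11 without X1SI4). Raw library sizes moved the median log2 fold change of all genes by 0.14 and made Egr1, in place of Junb, the gene with an unadjusted p-value under 0.05. DESeq2 gave 16 genes and limma-voom with quality weights 4 genes with an adjusted p-value under 0.05, against 0 in edgeR and 0 to 1 without single libraries (1 without X32SI4). At an unadjusted p-value under 0.05, quality weights gave 1850 genes, and leaving out libraries gave from 258 (without low cys X23SI4) to 1763 (without normal cys X17SI4), with 403 without SI9 and 522 without X10SI4. The number of the 10 genes at this level was 1 in edgeR, 2 in DESeq2 (Junb and Egr1), 2 with quality weights, and from 0 (without SI9) to 3 (without X32SI4). The causes were not tested. DESeq2, limma-voom without weights, DESeq2's size factors, both filters and the fit that is not robust changed no direction of the 10 genes. No paired analysis was possible because the labels give no replicate numbers shared by the diets. With 45 to 103 counts of Ier3 and 20 to 91 of Fosb per library, counting error adds to the spread of both. In the library with the fewest counts it was 14.9% for Ier3 and 22.4% for Fosb, below their BCV of 27.8% and 51.4%.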

Other observations

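In the integrated stress response list, 2 genes were far higher in low cys library X23SI4 than elsewhere. Chac1, which degrades glutathione, had 12.9 CPM in X23SI4 against 1.19 to 2.29 CPM in the other 6 libraries, and Ddit4, an inhibitor of mTORC1, had 45.1 CPM against 8.62 to 13.5 CPM. Of the other genes named from this list, Trib3 (8.20 CPM) was at its lowest in X23SI4. Atf4 (207.6 CPM) and Ddit3 (12.8 CPM) lay within the range of the other libraries, and the remaining genes were not described singly. The sum of the list in X23SI4 (368.8 CPM), to which Atf4 contributed most, lay inside the normal cys range (308.8 to 378.3 CPM). It was above that of low cys libraries X26SI4 (293.2 CPM) and X10SI4 (277.5 CPM). The same library had 1.47 CPM of Fosb, 83.3 CPM of Junb and 26.7 CPM of Atf3, the lowest low cys values of these genes. It was also the lowest low cys library for Jun (82.1 CPM), Egr1 (14.6 CPM) and Ier2 (34.5 CPM), but not for Fos, Ier3, Dusp1 and Zfp36. Without a second library of this kind the values have no replicate.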
